A study of Rattus norvegicus with 10 samples.

Results

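The genes described here drive cells through the division cycle: 45 genes of the G1, DNA replication and mitotic programmes, measured in rat liver. They were chosen by name, and each was represented by the probe set with the highest mean among those that name it alone. Such a probe set was found for 43 of the 45 genes, out of 14217 genes measured on the arrays in this way. Rrm2 was left out because its 2 probe sets also name Rrm2l1, and Cdc6 had no probe set that names it. The study set 5 male Sprague-Dawley rats exposed to effluent from plants that manufacture bulk drugs against 5 male control rats of the same outbred strain, with 1 liver array per animal. The labels give no age, dose or time for either group, nor what the control animals received. RNA came from whole liver, so more dividing cells and more transcript per cell cannot be told apart.

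Most hepatocytes of an adult animal rest outside the cycle, and liver is known for re-entering it after tissue loss or mitogens. Cyclin D1 carries cells through G1, E2F factors then switch on the replication genes, and the DREAM and MuvB complexes with B-Myb and FoxM1 later switch on the genes of G2 and mitosis. Mitotic transcripts are therefore low in resting tissue and sensitive to a small number of cycling cells, and several replication genes also serve DNA repair.

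Each value is the log2 signal of a probe set, and all differences are exposed minus control unless stated otherwise. A difference of 1 on this scale is a 2-fold change. Array medians lay between 5.43 and 5.49, and correlations between arrays were 0.991 to 0.996. Albumin (Alb), which marks hepatocytes, read at most 14.99 in exposed livers and at least 14.98 in control livers, near the top of the scale. The mean of 29 of the 43 genes lay above that of the median probe set (5.47), and the other 14, Mki67 among them, lay below it, where array signal holds more background.

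No cell cycle gene passed the test between exposed and control livers, and the most visible pattern among these genes was a single control animal. Control animal 1 had the highest value of all 10 animals for 34 of the 43 genes, whereas that animal was highest for 13.6% of all genes. The mitotic genes stood 0.93 higher on average in control animal 1 than in the other 4 control animals, the replication genes 0.41 higher, and Ccnd1 stood 1.00 lower. The mitotic score of the 5 exposed animals lay inside the range of the control animals, and the sign of 17 of the 43 differences turned when control animal 1 was left out. These statements describe 1 animal and carry no test.

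**Figure D1:**
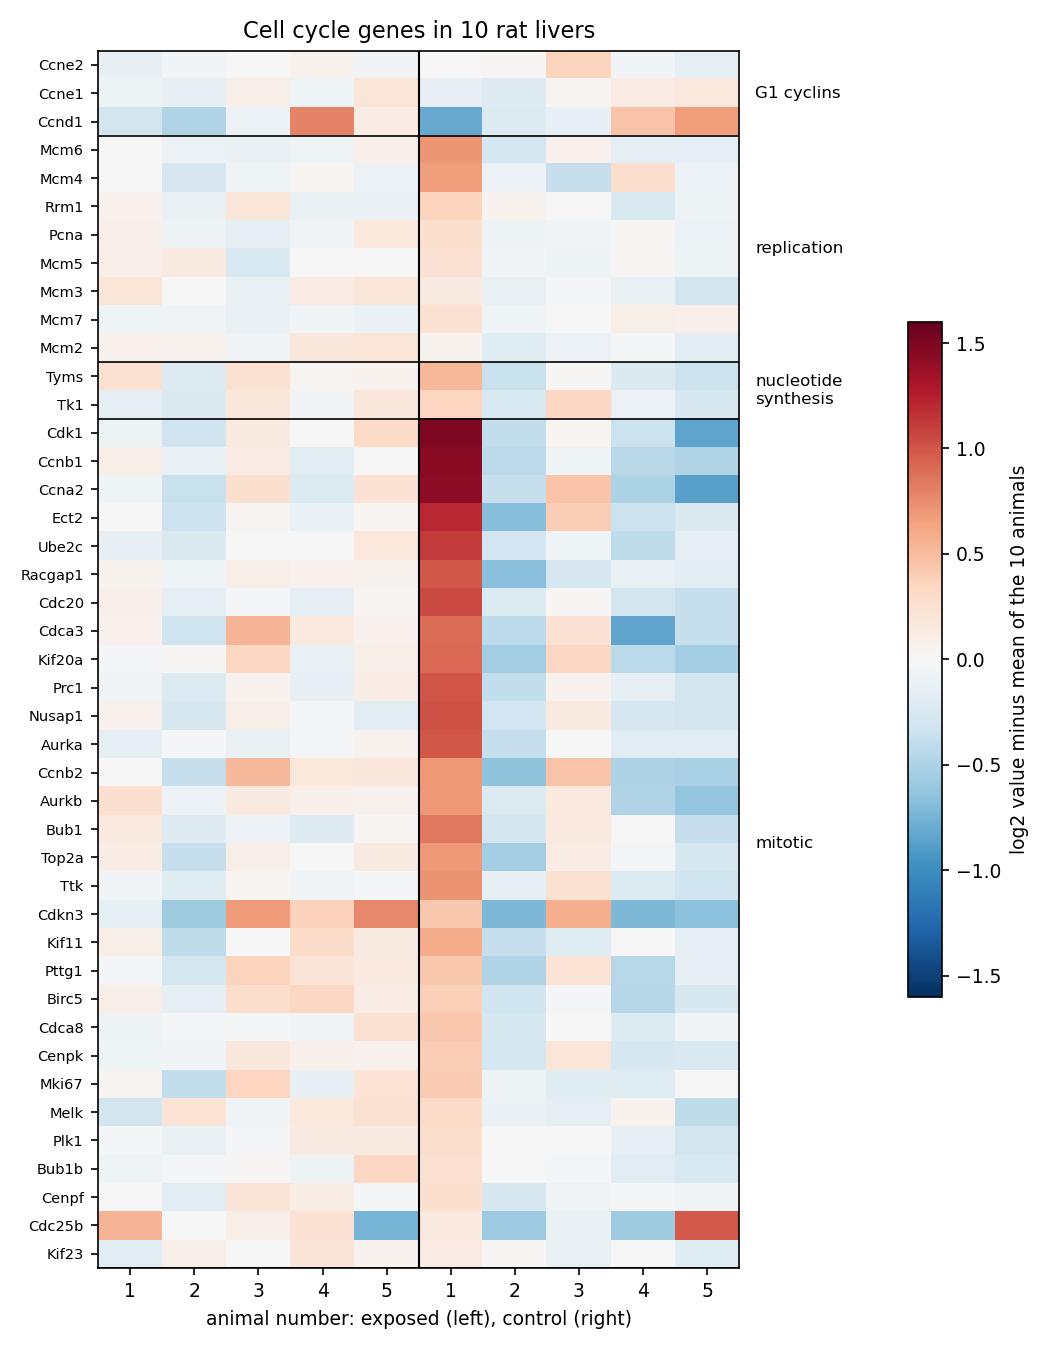
Heat map of 43 cell cycle genes (rows, grouped by role) in 10 livers (columns, exposed animals 1 to 5 left of the line and control animals 1 to 5 right of it). Colour gives the log2 value after centring each row on its average of 10 livers. Control animal 1 is darkest red for most mitotic genes and blue for Ccnd1, and control animals 2, 4 and 5 are mostly blue for mitotic genes.

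Among the G1 cyclins, cyclin D1 (Ccnd1) activates Cdk4 and Cdk6 and so opens G1. It read 9.29, 9.10, 9.49, 10.38 and 9.71 in exposed animals 1 to 5, against 8.78, 9.36, 9.46, 10.04 and 10.25 in control animals 1 to 5. The groups overlapped throughout, and the lowest of the 10 values was that of control animal 1. The difference was 0.02 with a 95% interval of -0.58 to 0.62. The gene has 2 further probe sets, and control animal 1 was lowest on each of them too. Ccne1 and Ccne2, the cyclin E genes that act with Cdk2 at the entry to S phase, differed by 0.00 (interval -0.19 to 0.19) and -0.07 (-0.26 to 0.11). None of the 3 G1 cyclins was highest in control animal 1, where Ccne1 read 0.16 and Ccne2 0.04 below the mean of the other control animals.

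The replication genes were led by the Mcm2 to Mcm7 subunits of the helicase that opens DNA at origins. Mcm2 read 6.36, 6.34, 6.23, 6.46 and 6.48 in exposed animals 1 to 5, against 6.33, 6.09, 6.20, 6.26 and 6.10 in control animals 1 to 5. The groups overlapped in the range from 6.23 to 6.33. The difference of 0.18 ± 0.07 (SE) had an unadjusted limma p of 0.027, which did not pass after adjustment over all probe sets (limma adjusted p = 0.879). Mcm7 went the other way and read 7.51, 7.54, 7.47, 7.54 and 7.48 in exposed animals, against 7.83, 7.52, 7.58, 7.68 and 7.67 in control animals. Its exposed values were tightly grouped, and control animal 2 fell among them. The difference of -0.15 ± 0.06 (SE) likewise did not pass (unadjusted p 0.039, limma adjusted p = 0.879). Both proteins are subunits of the same hexamer, and across its 6 subunits 2 differences were above 0 and 4 below.

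Mcm3, with 5.68, 5.49, 5.37, 5.63 and 5.68 in exposed animals against 5.63, 5.37, 5.47, 5.38 and 5.19 in control animals, differed by 0.16 ± 0.09 (SE). Mcm4 read 5.28, 5.01, 5.20, 5.30 and 5.17 in exposed animals, against 5.94, 5.17, 4.90, 5.56 and 5.18 in control animals. Control animals 1 and 4 were the highest of the 10. The difference was -0.16, and without control animal 1 it was -0.01. Mcm6 read 5.26, 5.17, 5.17, 5.20 and 5.35 in exposed animals, against 5.97, 4.99, 5.34, 5.13 and 5.12 in control animals. Control animal 1 stood 0.83 above the mean of the other control animals for Mcm6, or 1.78-fold, while the exposed animals spanned less than 0.2. The difference of Mcm6 was 0.08 without control animal 1 and -0.08 with it.

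Pcna, the sliding clamp of DNA polymerase, which also serves repair and is a p53 target, read 9.55, 9.39, 9.33, 9.41 and 9.63 in exposed animals against 9.72, 9.38, 9.40, 9.49 and 9.37 in control animals. The groups overlapped and differed by -0.01 (95% interval -0.19 to 0.17). Mcm5 and Rrm1, the large subunit of ribonucleotide reductase, differed by -0.01 and -0.03. Of the 8 replication genes, 6 were highest in control animal 1, all but Mcm2 and Mcm3, and over the 8 its excess above the other control animals lay between 0.17 for Mcm2 and 0.83 for Mcm6. The thymidylate enzymes Tyms and Tk1, which supply thymidine nucleotides for S phase, stood 0.76 and 0.41 higher in that animal and differed between the groups by 0.15 and -0.03.

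The mitotic genes varied most between animals. Cdk1, the kinase that starts mitosis, read 6.59, 6.34, 6.80, 6.66 and 6.97 in exposed animals 1 to 5, against 8.16, 6.27, 6.70, 6.33 and 5.82 in control animals 1 to 5. Control animal 1 had the highest and control animal 5 the lowest of the 10 values, and the exposed animals lay between them. Control animal 1 exceeded the mean of the other control animals by 1.89, or 3.69-fold. The difference between the groups was 0.02 with a 95% interval of -0.71 to 0.74. Ccnb1, the cyclin B partner of Cdk1, read 6.88, 6.66, 6.90, 6.60 and 6.78 in exposed animals, against 8.22, 6.35, 6.70, 6.32 and 6.29 in control animals. Control animal 1 again stood apart (3.48-fold over the other control animals), and the second Ccnb1 probe set gave an excess of 1.77 against 1.80 on the one shown. Ccna2, cyclin A2 of S phase and G2, read 5.58, 5.29, 5.90, 5.42 and 5.88 in exposed animals, against 7.08, 5.28, 6.10, 5.14 and 4.78 in control animals. Its SD within groups of 0.68 was the largest of the 43 genes.

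Top2a, the topoisomerase that untangles chromosomes, read 6.08, 5.60, 6.06, 5.97 and 6.11 in exposed animals against 6.66, 5.42, 6.08, 5.94 and 5.70 in control animals. It differed by 0.00 (95% interval -0.40 to 0.41), with control animal 1 highest and control animal 2 lowest. Mki67, which codes for the proliferation marker Ki-67, read 4.10, 3.66, 4.40, 3.93 and 4.28 in exposed animals against 4.46, 3.97, 3.87, 3.86 and 4.05 in control animals. Its signal was dim and the groups overlapped over most of their ranges, with a difference of 0.03 (-0.28 to 0.35). Control animal 1 was highest, with exposed animal 3 next to it.

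The excess in control animal 1 took in genes of several steps of mitosis. Among regulators of entry and exit, it was 1.27 for Cdc20, 1.34 for Ube2c, the pair that help the anaphase-promoting complex tag cyclins for destruction, and 1.00 for Ccnb2. Among kinases it was 1.18 for Aurka, 0.99 for Aurkb, 0.97 for Bub1, a kinase of the spindle checkpoint, 0.83 for the checkpoint kinase Ttk and 0.39 for Plk1. Among genes of the spindle and of cytokinesis it was 1.43 for Ect2, 1.30 for Racgap1, 1.20 for both Prc1 and Kif20a, 1.19 for Nusap1 and 0.78 for the spindle motor Kif11. For Ect2, Racgap1, Prc1 and Kif20a the known role is to assemble the midzone and cleavage furrow. The excess was 1.25 for Cdca3, a trigger of mitotic entry, and 0.64 for both Pttg1 and Birc5. It was 0.56 for Cdca8, a partner of Birc5 in the chromosomal passenger complex, 0.54 for the centromere gene Cenpk and 0.46 for the kinase Melk, while the centromere gene Cenpf had a smaller one. In all, 26 of the 30 mitotic genes were highest in control animal 1 and 12 stood at least 1 log2 unit above the mean of the other control animals, a distance that 0.345% of all genes reached there. The 4 mitotic genes that were not highest in that animal on the probe set shown were Cdc25b, Cdkn3, Kif23 and Bub1b, with excesses of 0.22, 0.80, 0.20 and 0.35. On a second, dimmer probe set of Kif23 (mean 3.83) control animal 1 was highest, with an excess of 0.42.

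Cdc25b, a phosphatase that activates Cdk1, did not follow the other mitotic genes. It read 8.07, 7.54, 7.62, 7.76 and 6.79 in exposed animals, against 7.69, 6.96, 7.43, 6.96 and 8.51 in control animals. Its highest value was in control animal 5, where Cdk1 and Ccna2 were lowest, and its lowest in exposed animal 5. Cdkn3, a phosphatase that acts on Cdk1 and Cdk2, read 7.78, 7.37, 8.61, 8.30 and 8.70 in exposed animals, against 8.36, 7.22, 8.51, 7.22 and 7.27 in control animals. The values fell in a lower range (7.22 to 7.78) and a higher one (8.30 to 8.70), each with animals of both groups. Its difference of 0.44 was the largest among the 43 genes, with a 95% interval of -0.24 to 1.12.

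Promoter sequences were compared because the mitotic genes moved together across animals and the replication genes followed in part. RefSeq windows of 250 bases before to 50 after the start (build GRCr8) were found for 36 of the 43 genes. The CHR element (TTTGAA), which MuvB complexes bind, was present on either strand in 17 of 26 mitotic windows (65.4%) and 1 of 7 replication windows, against 18.1% of all 27457 windows. An E2F site (TTCCCGC or TTGGCGC or TTCGCGC or TTGCCGC, which may overlap one another, each window counted once) was present in 6 of 7 replication windows and 5 of 26 mitotic windows (19.2%), against 10.0% of all windows. Among the 11700 windows of genes measured on the arrays, CHR was present in 12.3% and an E2F site in 15.8%, so the mitotic share for E2F was close to that of measured genes. The CCAAT box, bound by NF-Y, was present in 22 of 26 mitotic and 6 of 7 replication windows, against 37.7% of all. CHR and CCAAT stood together in 16 of 26 mitotic windows (61.5%) and in 7.25% of all windows. A match is a run of letters, not a measured site. The windows printed here are those of Cdk1, which had the largest excess in control animal 1, of Prc1, which followed the other mitotic genes most closely, of Mcm6, the replication gene with the largest excess, and of Cdc25b, which did not follow. They lie at chr20:19265043-19265342 (plus strand), chr1:143659231-143659530 (plus strand), chr13:42404303-42404602 (minus strand) and chr3:138859923-138860222 (plus strand), are written 5′ to 3′ along the gene, and carry the 3 motifs in capitals.
Cdk1: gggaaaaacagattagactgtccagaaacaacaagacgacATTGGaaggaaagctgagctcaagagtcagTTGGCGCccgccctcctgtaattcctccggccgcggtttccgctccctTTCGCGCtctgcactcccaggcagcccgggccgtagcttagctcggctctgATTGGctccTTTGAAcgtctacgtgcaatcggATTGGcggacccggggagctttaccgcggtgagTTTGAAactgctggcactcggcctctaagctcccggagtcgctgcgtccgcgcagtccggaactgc
Prc1: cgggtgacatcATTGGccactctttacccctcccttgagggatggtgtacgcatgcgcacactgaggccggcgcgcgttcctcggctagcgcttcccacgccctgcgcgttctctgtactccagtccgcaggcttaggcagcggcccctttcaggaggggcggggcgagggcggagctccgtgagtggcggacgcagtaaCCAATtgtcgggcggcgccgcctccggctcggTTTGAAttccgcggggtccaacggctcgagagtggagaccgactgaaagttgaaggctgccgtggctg
Mcm6: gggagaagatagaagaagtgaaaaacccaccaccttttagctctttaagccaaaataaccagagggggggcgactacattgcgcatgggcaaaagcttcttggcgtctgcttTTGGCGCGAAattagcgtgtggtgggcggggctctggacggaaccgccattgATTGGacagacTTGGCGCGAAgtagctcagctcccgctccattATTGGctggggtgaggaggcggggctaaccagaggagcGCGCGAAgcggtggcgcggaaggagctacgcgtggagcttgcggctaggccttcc
Cdc25b: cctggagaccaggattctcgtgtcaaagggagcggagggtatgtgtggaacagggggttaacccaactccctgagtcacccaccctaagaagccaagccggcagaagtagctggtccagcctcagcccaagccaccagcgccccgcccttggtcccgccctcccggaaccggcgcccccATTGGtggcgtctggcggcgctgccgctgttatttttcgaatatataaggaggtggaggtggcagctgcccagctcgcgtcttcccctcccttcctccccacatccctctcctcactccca

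In these windows Cdk1 holds 2 CHR, 3 CCAAT and 2 E2F matches, and Prc1 holds 1 CHR and 2 CCAAT matches. Mcm6 holds 5 E2F and 2 CCAAT matches with no CHR, and Cdc25b holds 1 CCAAT match alone. These windows are examples, and an exact TTTGAA was not found for every gene that followed. Ccnb1, Kif20a, Cenpk, Cdca3 and Aurka (correlation with the other mitotic genes 0.92 to 0.95) hold no such match in the window searched. Variants of the element and other start sites were not searched, so a missing match does not show that CHR is absent. Kif23, which followed poorly on the probe set shown (0.34), holds 1. Lists of other cell cycle genes outside the 45, also written with earlier results of these data known, were searched in the same way. Their shares describe promoter sequence and are no independent check on these livers. CHR was found in 24 of 39 windows of other mitotic genes (61.5%) and 4 of 37 windows of other replication genes (10.8%), and an E2F site in 13 of 39 (33.3%) and 26 of 37 (70.3%).

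The comparison of exposed with control livers asked whether the effluent altered proliferation genes. Limma called 0 of the 43 genes at an adjusted p of 0.05, as it did over all 31042 probe sets (0.0%), and adjusted p values of the 43 genes were between 0.879 and 1.000. At an unadjusted p under 0.05 there was 1 higher gene, Mcm2, where 3.07% of all probe sets were higher, and 1 lower gene, Mcm7, where 2.39% were lower. Together these 2 of 43 stand beside 5.46% of all probe sets. In none of the 43 genes were the groups apart, against 0.892% of probe sets. Values were higher in exposed livers for 25 genes and lower for 18, with a median difference of 0.02, against 0.00 over all genes. Birc5, the survivin gene of the chromosomal passenger complex, followed Mcm2 and ranked before Mcm3 and Cdkn3 among higher genes, and read 5.58, 5.34, 5.77, 5.82 and 5.61 in exposed animals against 5.86, 5.16, 5.46, 5.03 and 5.23 in control animals. Exposed animal 2 lay below control animals 1 and 3, so the groups overlapped, and the difference was 0.27 ± 0.14 (SE). Among lower genes Mcm7 was followed by Mcm4, Ccne2 and Bub1, which read 4.81, 4.45, 4.56, 4.45 and 4.67 in exposed animals against 5.50, 4.36, 4.82, 4.65 and 4.28 in control animals and differed by -0.14 ± 0.19 (SE). Ccne2 read 4.06, 4.14, 4.18, 4.25 and 4.13 in exposed animals against 4.19, 4.20, 4.54, 4.14 and 4.05 in control animals, with control animal 3 alone above the rest.

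Changes of 2-fold or more lay outside the 95% interval for 42 of the 43 genes, all but Cdkn3, and changes of 1.5-fold or more for 32. Leaving out control animal 1 turned 17 signs, against 3 to 10 for the other 9 animals. Values of 38 genes were then higher in exposed livers instead of 25, among them all 30 mitotic genes. For each of these 30, control animal 1 lay above the mean of the other control animals (by 0.20 to 1.89). Leaving it out therefore had to raise their differences. At an unadjusted p under 0.05 there were then 9 of 43 genes, all higher, against 6.54% of all probe sets, and limma called 0 after adjustment (smallest limma adjusted p of the 43 genes 0.746). They were Birc5 (0.40), Ccnb1 (0.35), Racgap1 (0.35), Mcm2 (0.21), Tyms (0.30), Aurkb (0.38), Mcm3 (0.22), Cdk1 (0.39) and Cdca3 (0.46). With all animals the differences of Ccnb1 and Cdk1 were -0.01 and 0.02. The 43 genes also varied together without control animal 1 (mean correlation between pairs 0.28), so the 9 are not separate results.

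**Figure D2:**
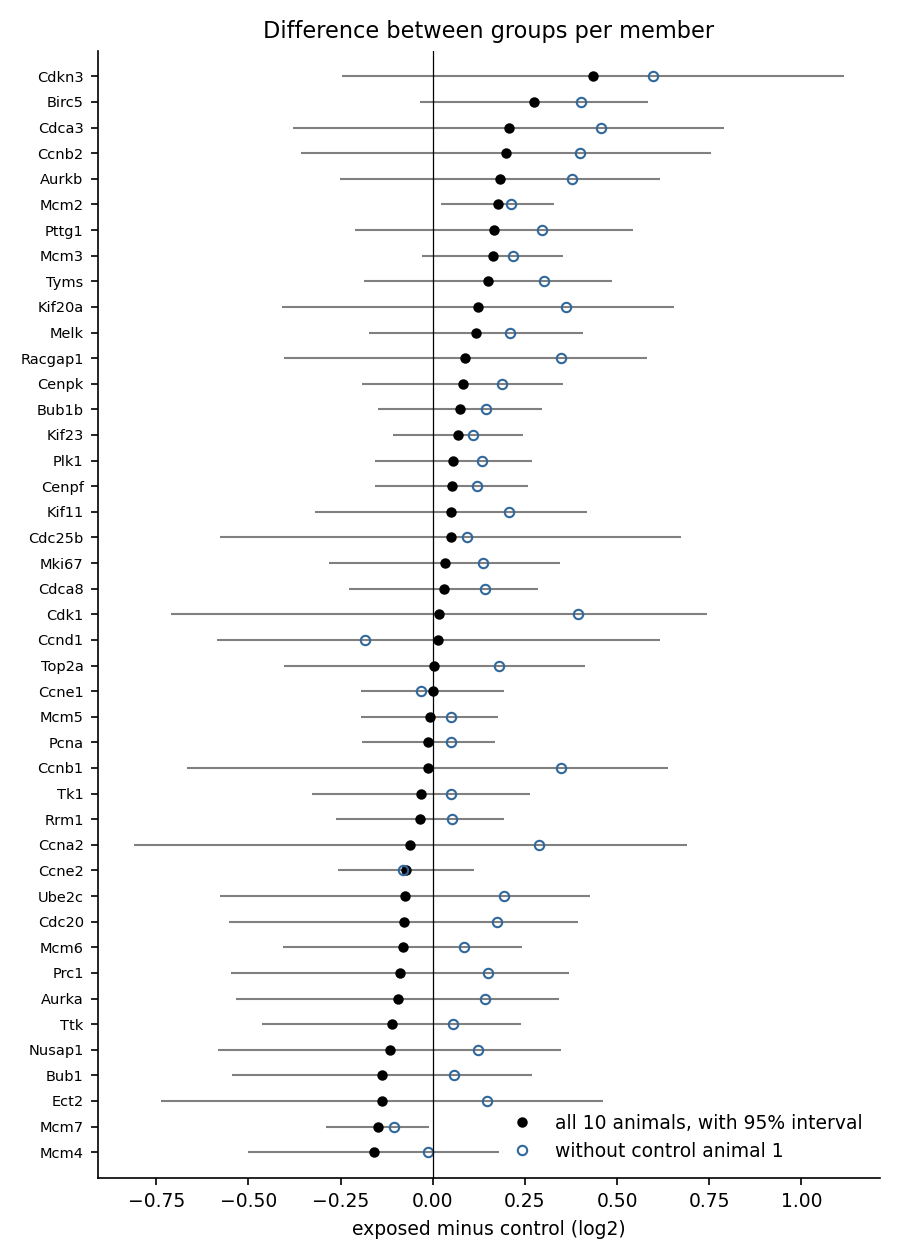
Exposed minus control difference on the log2 scale for each of 43 cell cycle genes, sorted by size. Filled points with bars give the difference over all 10 animals with its 95% interval, and open points the difference without control animal 1. Most intervals span 0, and open points of mitotic genes lie to the right of the filled ones, as for Cdk1 (0.39 against 0.02).

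Every gene was centred on its own average, and an animal's score is the mean of these centred values over a list. The mitotic score was 0.01, -0.18, 0.14, 0.04 and 0.10 in exposed animals 1 to 5, against 0.72, -0.34, 0.08, -0.29 and -0.29 in control animals 1 to 5. Control animals 2, 4 and 5 lay below all exposed animals, control animal 3 lay among them and control animal 1 far above, so the exposed range sat inside the control range. Group means were 0.02 ± 0.13 in exposed and -0.02 ± 0.45 in control animals (SD, n = 5 each), a difference of 0.05. Without control animal 1 the difference was 0.23, and without control animals 2, 4 or 5 in turn it was -0.03, -0.02 and -0.02. No p is given for scores, since the genes were chosen with earlier results of these data known.

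The replication score was 0.05, -0.05, -0.08, 0.00 and 0.04 in exposed animals, against 0.33, -0.10, -0.07, -0.01 and -0.11 in control animals. Control animal 1 was again highest and the other 9 animals lay within -0.11 to 0.05. The means were -0.01 ± 0.06 in exposed and 0.01 ± 0.19 in control animals (SD, n = 5 each), a difference of -0.01, or 0.07 without control animal 1. The replication score minus the mitotic score was 0.04, 0.13, -0.23, -0.03 and -0.06 in exposed animals, against -0.39, 0.24, -0.16, 0.28 and 0.18 in control animals. The 2 scores lay farthest apart in control animal 1, where the mitotic score was the higher, and there was a difference between the groups of -0.06.

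**Figure D3:**
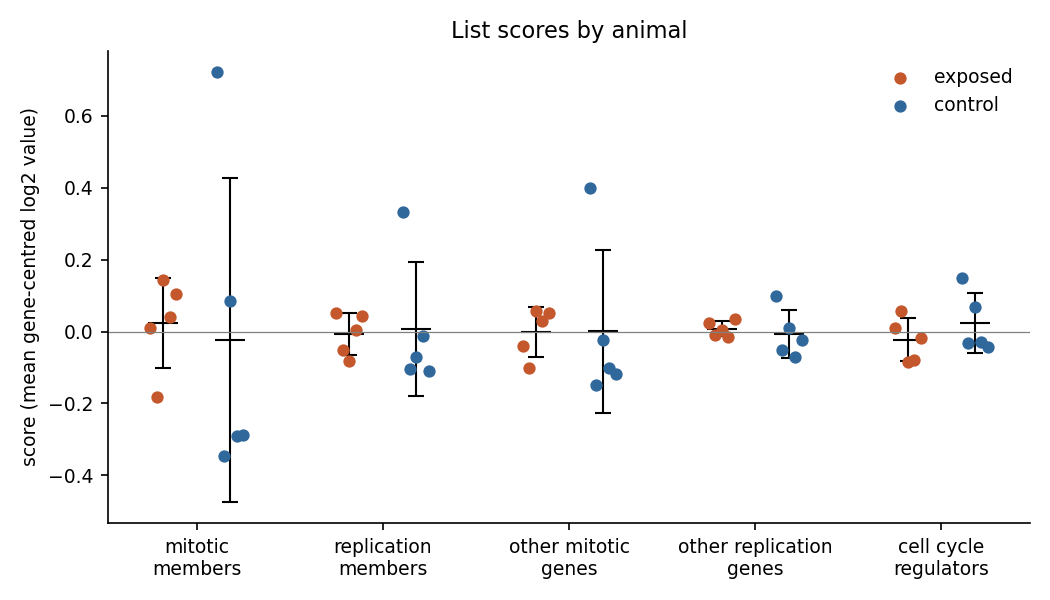
Scores of 5 gene lists by animal, with exposed animals left of control animals in each pair. The y axis is the mean gene-centred log2 value, points are animals, and bars give the group mean ± SD (n = 5 each). Control animal 1 is the top point of each control group, at 0.72 for mitotic genes and 0.33 for replication genes.

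The spread between animals was large for these genes. Their median within-group SD was 0.31, against 0.13 over all genes, and 29 of 43 exceeded 0.24, the value that 90% of all genes stay under. Without control animal 1 the count was 13 of 43, with that value at 0.23. Mitotic genes had a median SD of 0.39 and replication genes of 0.14, or 0.19 and 0.11 without control animal 1. The SD was larger among control than among exposed animals for 40 of 43 genes, where 56.3% of all genes had the larger SD in controls. Cyclin B1 (Ccnb1) had an SD of 0.13 in exposed and 0.82 in control animals, and Racgap1 0.06 and 0.62. A second, dimmer probe set of Racgap1 (mean 4.31) had 0.13 and 0.12. With control animal 1 left out, the other 4 control animals had the larger SD for 28 of 43 genes, against 52.6% of all genes. The 28 were 22 of 30 mitotic, 3 of 8 replication, 1 of 2 nucleotide and 2 of 3 G1 genes. The median within-group SD was then 0.17, against 0.12 over all genes.

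**Figure D4:**
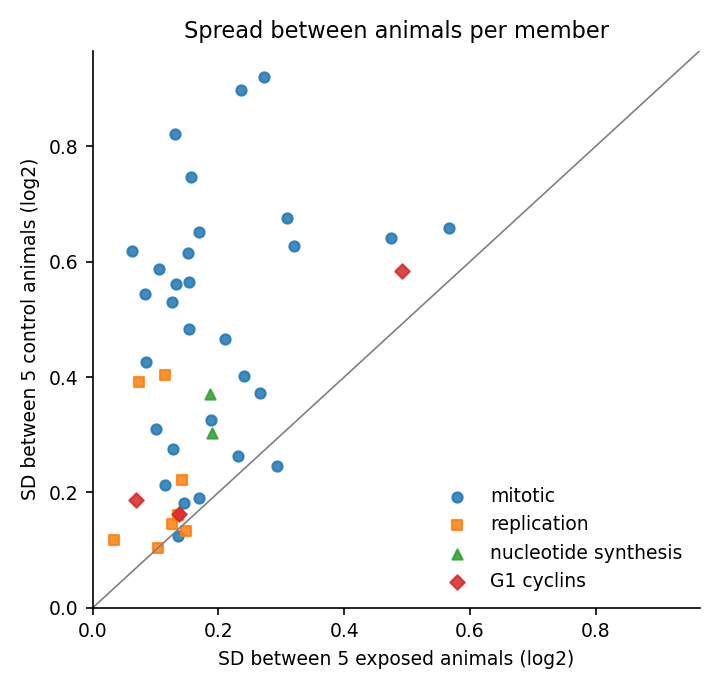
SD of each cell cycle gene between the 5 control animals (y axis) against that between the 5 exposed animals (x axis), both on the log2 scale, with the line of equal SD. Marker shapes give the role. Of 43 genes, 40 lie above the line, with Ccnb1 at 0.13 in exposed and 0.82 in control animals.

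The genes varied together between animals. With group means removed, the mean correlation between pairs was 0.54 over the 43 genes, 0.69 among the 30 mitotic genes and 0.57 among the 8 replication genes, against 0.00 over all genes. Without control animal 1 the values were 0.28, 0.40 and 0.12. Between replication and mitotic genes the mean correlation was 0.55 with all animals and 0.06 without control animal 1. Each mitotic gene was also set against the mean of the other 29. The correlation was above 0.8 for 21 of 30, or 12 of 30 without control animal 1, and with all animals it was highest for Prc1 (0.98), with Kif23 at 0.34 and Cdc25b at 0.03 as the lowest. Without control animal 1 the highest values among mitotic genes were those of Ccnb2 (0.98), Cdkn3 (0.94, against 0.74 with all animals) and Pttg1 (0.92), the securin gene. Aurka (0.54) and Racgap1 (0.31) were then lower than with all animals (0.92 and 0.88), and Melk (-0.14), Cdc25b (-0.17) and Kif23 (-0.24) were below 0. The nucleotide genes Tk1 (0.93) and Tyms (0.85) stayed above 0.8. Of the 8 replication genes, 5 were above 0 without that animal, namely Mcm6 (0.76), Rrm1 (0.36), Mcm3 (0.30), Mcm2 (0.15) and Pcna (0.09), and 3 below it, namely Mcm4 (-0.33), Mcm5 (-0.55) and Mcm7 (-0.31). These correlations describe 10 animals that share 1 normalization, and no p is attached.

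Lists of cell cycle genes outside the 45, also written with earlier results known, held 128 measured genes of 143. The score of 44 other mitotic genes was -0.04, -0.10, 0.06, 0.03 and 0.05 in exposed animals, against 0.40, -0.15, -0.02, -0.10 and -0.12 in control animals. It followed the mitotic score of the 30 genes with a Pearson r of 0.98 and a Spearman rho of 0.95 over 10 animals with group means removed, and with r = 0.90 without the 2 animals farthest from the median, control animals 1 and 2. The replication score followed the mitotic score with r = 0.85 and rho = 0.45. It gave r = 0.27 without the same 2 animals and 0.10 without control animal 1 alone, so that relation rested on control animal 1. The score of the 41 other replication genes gave r = 0.92 and rho = 0.81, and r = 0.72 without the same animals, so the relation of that score held without them. Single genes of these lists varied together less. The mean correlation between pairs was 0.35 among other mitotic and 0.06 among other replication genes, or 0.08 and 0.02 without control animal 1. Ccnd1 gave r = -0.51, rho = -0.24 and r = -0.27 without control animals 1 and 2. In all, 8 such relations were computed.

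**Figure D5:**
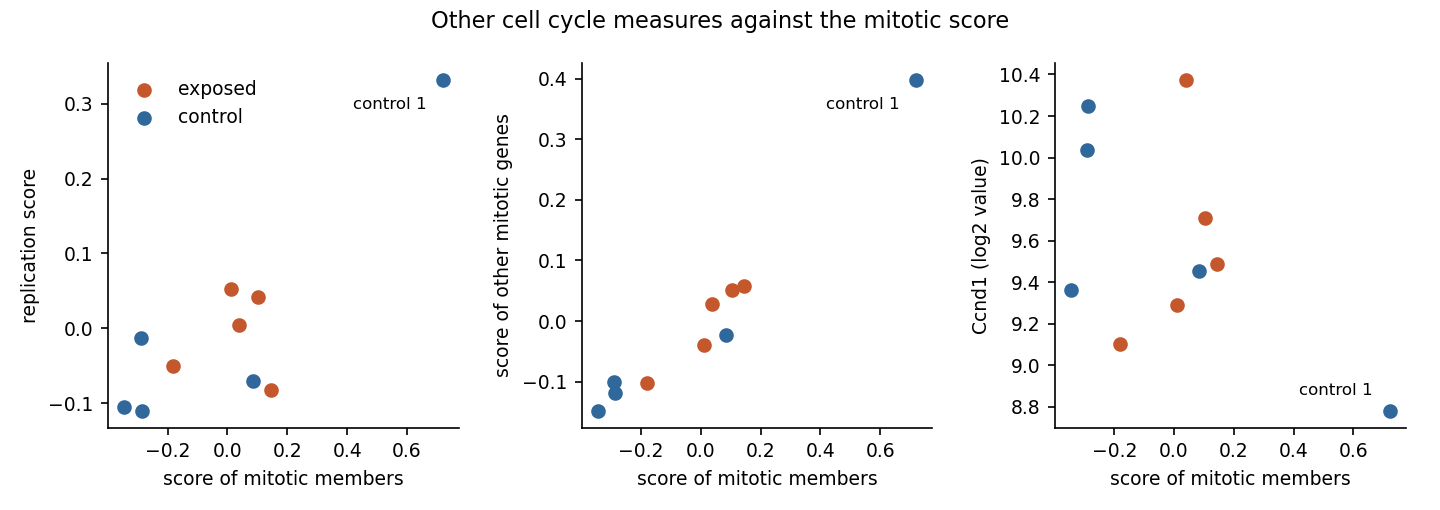
Replication score, score of other mitotic genes and the log2 value of Ccnd1 (y axes) against the score of 30 mitotic genes (x axes) in 10 livers, 1 point per animal. Control animal 1 lies at 0.72 on each x axis, at the top for both scores and at the bottom for Ccnd1 (8.78). Among the other 9 animals the score of other mitotic genes is higher where the mitotic score is higher, and the replication score scatters.

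Among the 128 genes limma called 0, with 3 higher and 2 lower at an unadjusted p under 0.05, where 3.07% of all probe sets were higher and 2.39% lower. These 5 of 128 are a smaller share than the 5.46% of all probe sets. Pole2, a subunit of DNA polymerase epsilon, differed by 0.22 ± 0.07 (SE) and was the single gene of the 128 whose groups did not overlap, with 4.45 to 4.67 in exposed and 4.18 to 4.44 in control animals. Over all probe sets 0.892% did not overlap, a share close to 1 of 128. Cdc45, which joins the Mcm helicase, differed by 0.17 ± 0.07 and the kinetochore motor Cenpe by 0.30 ± 0.13. Among lower genes were E2f5, a repressor of the E2F family, at -0.19 ± 0.07, and the spindle motor Kif15 at -0.15 ± 0.07, followed by the phosphatase Cdc25a at -0.18 ± 0.09. The limma adjusted p of each of these 6 genes was 0.879. Cdkn1a, the p53-induced inhibitor of cyclin-dependent kinases, read 7.09, 7.23, 6.87, 6.77 and 6.90 in exposed animals against 7.57, 7.39, 7.32, 7.07 and 6.78 in control animals. It was highest in control animal 1, the animal with the highest mitotic score, and differed between the groups by -0.25 (limma adjusted p = 0.880).

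For 11 genes there were 16 further probe sets. Their correlation with the probe set shown, group means removed, was 0.96 and 0.97 for Ccnd1, 0.98 for Ccnb1, 0.92 for Nusap1 and 0.82 for Top2a, with a median of 0.64. The lowest was -0.56, for a dim probe set of Cdc20 with a mean of 3.44, while a brighter one of the same gene gave 0.96. Dim further probe sets of Racgap1, Kif23 and Ccne2 gave 0.35, 0.18 and 0.12. On that of Racgap1, control animal 1 stood 0.12 above the other control animals, against 1.30 on the one shown. The difference between groups without control animal 1 was 0.04 there, against 0.35. Control animal 1 was highest on 9 of the 16 further probe sets. The sign of the difference between groups was that of the shown probe set for 9 of 16, and the smallest unadjusted p among them was 0.167.

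Markers of other cells and RNA quality were set beside the mitotic score. Kupffer cell and macrophage markers (10 of 12 measured) had scores of -0.49 to 0.38 in exposed and -0.80 to 0.33 in control animals, with control animal 1 at 0.17. Their summed linear values were 5390 to 9687 in exposed and 4438 to 9263 in control animals. Lymphocyte markers (14 of 16) had scores of -0.24 to 0.20 in exposed and -0.24 to 0.15 in control animals, where control animal 1 was the highest control, and summed to 461 to 623 and 456 to 595. Of the lymphocyte markers, 4 of 14 lay above the median probe set. Hepatocyte markers (9 of 10) had scores of -0.04 to 0.04 in exposed and -0.06 to 0.05 in control animals, with control animal 1 lowest. That low score rested largely on 1 marker, at -0.46 from the other control animals, where the median marker was at -0.02. Control animal 1 was highest for 2 and lowest for 2 of these 9 markers. None of the hepatocyte markers was near the lowest value on the array (2.19). The log2 ratio of 3' to 5' control probe sets, a measure of RNA quality, was 0.49 to 0.60 in exposed and 0.51 to 0.73 in control animals, with control animal 1 at 0.51. Correlation with the mitotic score was 0.20 for macrophage, 0.38 for lymphocyte and -0.66 for hepatocyte markers and -0.64 for the RNA ratio, or -0.07, -0.14, -0.04 and -0.23 without control animal 1. Without control animals 1 and 2 the values were 0.27, 0.13, -0.03 and -0.61. Spearman rho over all 10 animals was -0.03, 0.09, -0.39 and -0.32. The size of the relation with the RNA ratio thus depended on the animals kept and on the measure. The part of these cells and of RNA quality in the mitotic score was not tested.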

How the data were processed

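Liver RNA of 10 rats was hybridised to Affymetrix 3' arrays. The authors deposited RMA values on a log2 scale. The submitters' processing notes name R 2.8.1, and the span of 2.19 to 15 fits log2. RMA normalizes arrays to one another and gives no detection call. Precision is limited by having 10 arrays. Of 31099 probe sets, 57 controls were left out. In GEO's platform annotation, 1 gene is named by 20826 probe sets, several genes by 436, and 9780 are unnamed here. Of the named, 20758 matched RefSeq (GRCr8) by Entrez number.

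All 31042 probe sets were fitted with limma 3.58.1 in R 4.3.3 (two-sided, Benjamini-Hochberg over all, threshold 0.05). The fit was tested on simulated data. Rrm2 and Cdc6 are not analysed here. Genes given for every animal followed a rule: fixed markers, the 4 smallest p per direction and the 5 largest within-group SDs, plus 3 other cell cycle genes per direction and Cdkn1a. Members and lists were chosen with earlier results of these data known. Other genes named with values were chosen after their values were seen. Alternatives covered normalization, priors, weights, probe set choice, a low-value filter, RNA quality and leaving out each animal.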

Additional observations from a re-analysis of the deposited data

Results flagged for a closer look

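A group was looked at for an animal whose distance to its neighbour took up more than 0.71 of the whole span. This held in 9 of 112 groups, where chance gives 1 in 20, or about 5.6, for separate groups. Many of the genes vary together and the scores average them, so these counts carry no test. Control animal 1 accounted for 5 of the 9. It read 8.22 for Ccnb1 (other controls 6.29 to 6.70), 8.16 for Cdc20 (6.73 to 7.12), 6.71 for Aurka (5.33 to 5.71) and 7.35 for Ube2c (5.84 to 6.18), and scored 0.33 for replication genes (-0.11 to -0.01). Its mitotic score of 0.72 and its Cdk1 value of 8.16 did not reach that bound. Exposed animal 2 read 5.60 for Top2a (other exposed animals 5.97 to 6.11) and 5.23 for Racgap1 (5.35 to 5.39). Exposed animal 5 read 5.69 for Cdca8 (5.37 to 5.43) and 4.75 for Bub1b (4.34 to 4.44).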

How the results depend on the processing

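All alternatives were planned. The count of 0 of the 43 genes past the adjusted threshold held under each of them, and over all probe sets it ranged from 0 to 1, with 1 without exposed animal 1. The 2 genes at an unadjusted p under 0.05 became 1 with array weights, 1 with quantile normalization and 1 with a replicate block, and 0 to 9 when single animals were left out, 9 without control animal 1 and 0 without control animal 5 or exposed animal 5. The 5 other cell cycle genes became 8 with array weights, 2 with the filter, where fewer genes were tested, 8 with a replicate block and 4 to 12 without single animals. The replicate block left score differences as they were, as the groups are balanced over its numbers. The values gave no sign that the numbers pair the animals. Deviations of same-numbered animals correlated at -0.07 to 0.09, and 0 of 10 animals correlated best with their own number. Such correlations cannot show that there was no pairing. Mean correlation among the 43 genes was 0.28 to 0.58 without single animals. Score differences moved by less than 1 SD between animals when that SD included control animal 1, which widened it. The SD of the mitotic score was 0.45 among all control animals, 0.20 without control animal 1 and 0.13 among exposed animals. The mitotic score difference of 0.05 was 0.23 without control animal 1. With RNA quality as a covariate it was -0.12, and 11 of 43 signs turned. The replication score difference of -0.01 was 0.07 without control animal 1 and 0.02 with the filter.

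Directions of small differences were not stable, and apart from the animal left out the cause was not tested. Without single animals the differences ranged from -0.13 to 0.18 for Top2a, -0.0496 to 0.14 for Mki67, -0.19 to 0.39 for Cdk1, -0.14 to 0.35 for Ccnb1, -0.18 to 0.18 for Ccnd1, -0.16 to 0.0845 for Mcm6, -0.0542 to 0.0501 for Pcna, -0.12 to 0.00567 for Ccne2, -0.25 to 0.0571 for Bub1, -0.285 to 0.29 for Ccna2 and -0.0893 to 0.30 for Cdc25b. The RNA quality covariate gave -0.16 for Top2a, -0.0773 for Mki67 and -0.39 for Cdk1. Centring on array medians gave -0.0182 for Top2a, -0.0063 for Cdk1 and -0.0071 for Ccnd1, quantile normalization -0.0057 for Top2a and 0.0199 for Pcna, and array weights 0.0484 for Ccnb1, -0.0388 for Ccnd1 and 0.0033 for Pcna.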

Other observations

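Genes outside the cell cycle lists were looked at in control animal 1 after its values had been seen. In that liver 49 of 14217 genes stood at least 1 log2 unit above the mean of the other control animals, and 20 stood as far below. Of the 49, 12 were among the 43 cell cycle genes and 8 among the other cell cycle lists, among them Kif22, Spc25, Pbk, Hmmr and Myc. The other 9 animals had 8 to 35 genes as far above the rest of their own group, with 0 of the 43 genes in 8 of them and 1 in control animal 5.

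Myc, an early growth regulator, read 5.45, 6.17, 5.03, 5.66 and 5.54 in exposed animals, against 7.67, 5.63, 7.31, 5.10 and 4.96 in control animals. Control animals 1 and 3 were the highest, and they also had the highest mitotic scores of their group. Egr1, an immediate early gene, was 10.32 in control animal 1 and 10.18 in control animal 3, but also 10.69 in exposed animal 1, whose mitotic score was 0.01.

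Clock genes were also extreme in that liver. Dbp, a clock output gene, read 7.28, 6.79, 8.65, 8.80 and 9.47 in exposed animals, against 5.80, 6.50, 6.97, 8.67 and 9.34 in control animals. Nr1d1, the clock repressor Rev-erb alpha, read 6.50 in control animal 1 and 8.15 to 8.88 in the other 9 animals, and Nfil3, which opposes Dbp at the same sites, read 9.26 there and 7.58 to 8.65 elsewhere. Control animal 1 thus had the lowest Dbp and Nr1d1 and the highest Nfil3 values of the 10 livers. These genes were picked after their values were seen, and whether clock phase and the mitotic genes are linked was not tested.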
